A study of Mus musculus with 6 samples.

Results

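Cholangiocyte nuclei were examined in snRNAseq data from mouse liver. These are the nuclei of the epithelial cells that line the bile ducts. A nucleus was counted as one when it had more than 200 and under 5000 genes, under 5% mitochondrial UMIs, at least 3 of the 7 biliary markers Epcam, Krt7, Krt19, Sox9, Pkhd1, Bicc1 and Cftr, and at most 1 UMI in sum of the 6 genes Ptprc, Ptprb, Stab2, Skap1, Msln and Upk3b, which mark leukocytes, endothelial cells and mesothelial cells. A UMI is 1 counted transcript molecule. The rule chose 319 nuclei of 39012 that passed the limits on genes and mitochondrial UMIs, out of 41882 barcodes. The values of these 13 genes chose the nuclei, so they are given below as a description and were not tested.

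Cholangiocytes modify bile by moving chloride, bicarbonate and water across the duct wall, and they respond to the hormone secretin. Each carries a primary cilium that reaches into the duct, and several of the proteins made by genes mutated in polycystic liver disease sit in or near it. In injured or fatty livers cholangiocytes can multiply and secrete chemokines and matrix factors, which is known as the ductular reaction.

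The livers came from 6 male DIAMOND mice, a cross of 129A1/SvIm and C57BL/6J, whose diets began at 2 months of age. The 2 Ctrl mice ate chow (CD) for 40 weeks, the 2 Pre-T mice ate a Western diet (WD), meaning high-fat food and sugared drinking water, over 40 weeks, while for the 2 Post-T mice it lasted 48 weeks. Each mouse gave 1 library, made from nuclei of snap-frozen liver with the 10x 3' chemistry. The Post-T libraries are titled tumor while their tissue is given as liver, so whether tumour tissue was taken is not known. Values per mouse below run from Ctrl over Pre-T to Post-T, with replicate 1 of each group before replicate 2. Pre-T stands for pre-tumor and Post-T for post-tumor. The study reports tumours in the Post-T mice and none yet in the Pre-T mice. Tumour status, WD feeding for 48 weeks and the additional 8 weeks of age cannot be told apart in the Post-T mice. They have no chow group of the same age here.

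The deposited libraries held 22453658 to 40307564 UMIs and left 5323 to 7846 nuclei each after filtering. Of the barcode sequences, 181 occurred in 2 or more libraries; they included the barcodes of 3 cholangiocyte nuclei, and none was a cholangiocyte nucleus in more than 1 library. Endothelial nuclei of the same mice, 4278 in all, served as the comparison class. They carried at least 3 of the endothelial markers Stab2, Ptprb, Flt1, Kdr, Pecam1 and Fcgr2b and, by definition, none of the 7 biliary markers.

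The rule found 101, 61, 62, 50, 44 and 1 cholangiocyte nuclei in the 6 mice, with 401699, 209947, 283495, 269605, 197091 and 10794 UMIs in sum. Post-T 2 therefore rests on 1 nucleus. That nucleus carried Sox9, Pkhd1 and Bicc1 and 3 of the 16 biliary markers that the rule did not use, and it took the normalization factor 1.86 where the other 5 mice took 0.835 to 0.902. Nearly all Post-T UMIs come from Post-T 1, yet edgeR took the single nucleus as 1 of the 2 Post-T mice, so it can pull a Post-T value either way. It held 51 UMIs of Glul, against 108 over all 44 nuclei of Post-T 1. Of the 238 genes called lower in Post-T than in Ctrl mice, 207 had no UMI in it. The counts of changed genes are given with and without each mouse. Ctrl 1 also stands apart, because 54 of its 101 nuclei formed a group with high Krt19 that held 1 nucleus each of Ctrl 2 and Pre-T 2.

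Pkhd1 and Bicc1 carried most of the selection. Bicc1, an RNA-binding protein of the polycystic pathway, had a UMI in 98.1% of cholangiocyte nuclei and Pkhd1, which encodes the ciliary protein fibrocystin, in 92.2%. Sox9 had one in 42.3%, Krt19 in 33.2%, Epcam in 23.2% and Krt7 in 12.5%. The most frequent sets of exactly these markers were Sox9, Pkhd1 and Bicc1 in 85 nuclei, Pkhd1, Bicc1 and Cftr in 51, Krt19, Pkhd1 and Bicc1 in 36 and Epcam, Pkhd1 and Bicc1 in 30. The first of these sets lacks both cytokeratins.

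Most nuclei sat at the threshold of the rule. Of the 319, 235 carried exactly 3 of the 7 markers, 63 carried 4 and 21 carried 5 or more, while 887 further nuclei carried exactly 2 and were left out. Glis3, a transcription factor tied to polycystic disease, had a UMI in 94.0% of nuclei with 4 or more markers, in 74.9% of those with exactly 3 and in 37.2% of those with exactly 2. The same order held for Spp1, the secreted glycoprotein osteopontin, with 63.1%, 45.1% and 23.1%. Another 89 nuclei met the marker rule but carried more than 1 UMI of the 6 excluded genes.

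The 16 biliary markers outside the rule are given as a description of the nuclei. They took 0.533, 0.339, 0.423, 0.385, 0.362 and 0.0371% of the UMIs of cholangiocyte nuclei, against 0.0233 to 0.0479% in endothelial nuclei, so all mice except Post-T 2 lay far above the comparison class. Cholangiocyte nuclei with a UMI of Glis3 made up 80.2, 70.5, 77.4, 86 and 90.9% in the 5 mice other than Post-T 2, against 6.21, 4.91, 5.92, 4.52 and 6.01% of endothelial nuclei. The median depths behind these shares were 3170, 2641, 2775, 3731.5 and 3236 UMIs in cholangiocyte nuclei and 2117.5, 1727.5, 2659, 2440 and 1679 in endothelial nuclei.

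Markers of other classes were also present. The 12 hepatocyte markers took 1.99, 1.77, 1.25, 1.91, 0.603 and 0.917% of the UMIs of cholangiocyte nuclei and 2.52, 1.73, 0.715, 1.59, 0.930 and 1.51% in endothelial nuclei, and all 12 were detected in each mouse but Post-T 2, where Cyp3a11 and Fga were at 0. The 5 mesothelial markers took 0.0356 and 0.0814% in the Ctrl mice and 0 to 0.00964% in the WD mice, against 0.00265 to 0.0114% in endothelial nuclei. In the cholangiocyte nuclei of the WD mice Msln was at 0 throughout, and Wt1 and Muc16 were detected in Pre-T 1 only. The macrophage list took 0.00672 and 0.0110% in Ctrl mice, 0.0138 and 0.0293% in Pre-T mice, 0.0188% in Post-T 1 and 0 in Post-T 2, against 0.00537 to 0.108% in endothelial nuclei. Stellate or fibroblast markers took 0 to 0.0481% and lymphocyte markers 0 to 0.00564%, and Skap1 was at 0 in all 6 mice. Over 1 UMI of stellate or fibroblast markers was found in 55 cholangiocyte nuclei and over 1 UMI of the mesothelial markers Wt1, Gpm6a and Muc16 in 44. The part that these transcripts play in the differences between groups was not tested beyond leaving out some nuclei. Those left out carried mesothelial UMIs, stellate or fibroblast UMIs, or at least 5% hepatocyte UMIs. The last limit removed only 2 nuclei, so it could show little about hepatocyte transcripts.

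Beyond the markers, the genes that set these nuclei apart from the other filtered nuclei were led by epithelial genes. Ranked by the lowest ratio of CPM (UMIs of a gene per 1000000 UMIs of the class in that mouse) over the 5 mice with more than 1 such nucleus, and among 5204 genes with enough UMIs in each, Cdh6, a cadherin, came first at 71.9 to 118 times the level of the other nuclei. Anxa13, an epithelial annexin, followed at 61.7 to 106 times, Grhl2 at 42.5 to 82.5, Chst9 at 41.3 to 77.7 and Tspan8 at 31.3 to 75.1. Transcription factors among the leaders were Ehf, at 30.9 to 94.7 times, and Hnf4g, at 21.3 to 62.7. Sctr, the secretin receptor, was 18.3 to 56.7 times higher and the sodium glucose transporter Slc5a1 15.6 to 63.7 times. Over all 6 mice only 438 genes had enough UMIs, because of the single nucleus of Post-T 2, and Shank2 and Sema5a led at lowest ratios of 2.19 and 2.12, so that the ranking over 5 mice was added after the data were seen. These ratios are a description, since the nuclei were chosen by markers that move with such genes.

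Cholangiocyte nuclei made up 1.40% of filtered nuclei in Ctrl 1 (95% exact binomial interval 1.14 to 1.69%), 0.785% in Ctrl 2 (0.601 to 1.01%), 1.15% in Pre-T 1 (0.880 to 1.47%), 0.637% in Pre-T 2 (0.473 to 0.839%), 0.810% in Post-T 1 (0.589 to 1.09%) and 0.0188% in Post-T 2 (0.000476 to 0.105%). Intervals here cover counting error only. The groups overlapped, with a Ctrl mean of 1.09% ± 0.433, a Pre-T mean of 0.892% ± 0.360 and a Post-T mean of 0.414% ± 0.559 (SD, n = 2 mice each). The difference between WD and Ctrl mice was -0.438 percentage points, within the spread between mice (0.653 against 1.09%, two-sided exact permutation test over mice, p = 0.4, smallest possible p 0.0667). Pre-T minus Ctrl was -0.199 points, Post-T minus Ctrl -0.676 and Post-T minus Pre-T -0.478 (exact permutation p = 0.667 for each, smallest possible 0.333). Leaving out Post-T 2 brought the difference between WD and Ctrl mice to -0.226 points, and leaving out Ctrl 1 to -0.132 points.

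Depth enters this share, because 3 markers are more easily found in deeper nuclei. After every barcode was thinned to 500 UMIs, 21, 12, 16, 7, 8 and 0 nuclei met the rule, or 0.290, 0.154, 0.296, 0.0892, 0.147 and 0% of filtered nuclei. The order of the mice then placed Pre-T 1 level with Ctrl 1, and the difference between WD and Ctrl mice was -0.0893 points. A share of nuclei does not tell fewer cholangiocytes from cholangiocytes with less RNA per nucleus.

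**Figure D1:**
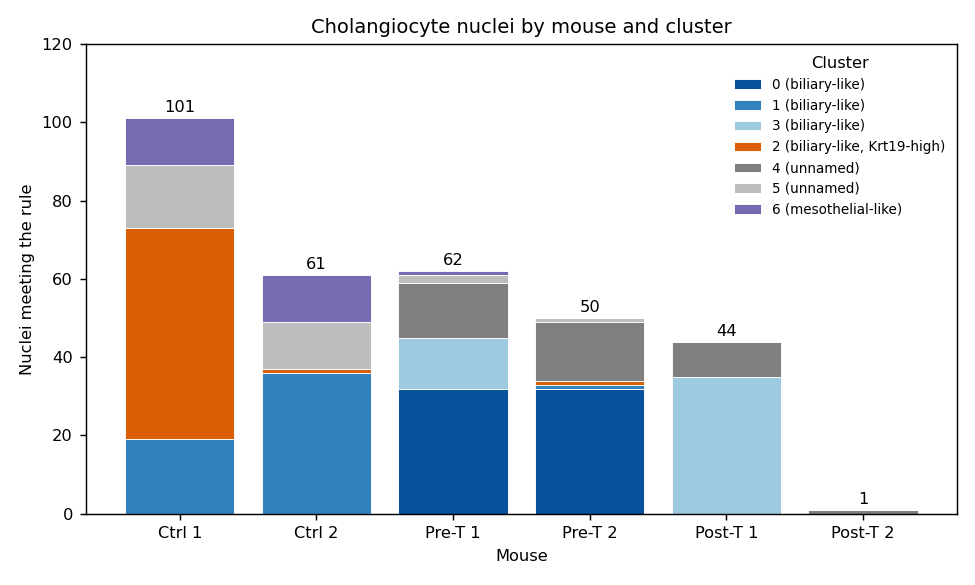
Stacked bars give the number of cholangiocyte nuclei per mouse (y axis, nuclei, starting at 0) split by the 7 Leiden clusters. Ctrl, Pre-T and Post-T nuclei sat mostly in different clusters, 54 of the 101 nuclei of Ctrl 1 made up all but 2 nuclei of cluster 2, and Post-T 2 held 1 nucleus.

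Clustered on their own, the 319 nuclei fell into 7 clusters, 4 of which carried the biliary markers without a stronger sign of another class. Cluster 0 (64 nuclei, 32 each of Pre-T 1 and Pre-T 2) had Spp1 in 81.3% of nuclei. It had Cftr, the cyclic AMP-dependent chloride channel, in 54.7% and Dcdc2a, a ciliary doublecortin protein, in 76.6%. Cluster 1 (56 nuclei, 19 of Ctrl 1, 36 of Ctrl 2 and 1 of Pre-T 2) was led by Chst9 and Fgf12, among others, and had Spp1 in 51.8%. Cluster 3 (48 nuclei, 35 of Post-T 1 and 13 of Pre-T 1) was led by Slit2, Greb1l and Nkain2, with the haemoglobin gene Hba-a2 also among its 10 leading genes. Cluster 2 (56 nuclei, 54 of Ctrl 1) had Krt19 in 82.1% and Glis3 in 100% of its nuclei but no UMI of Sctr. The 4 clusters are called biliary-like, and the split between them followed mouse and group, so that a cluster and a mouse could not be separated.

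The remaining 3 clusters carried few biliary genes or strong signs of another class. Cluster 6 (25 nuclei, 12 of each Ctrl mouse and 1 of Pre-T 1) is called mesothelial-like: Muc16 was found in 88.0% of its nuclei and the mesothelial transcription factor Wt1 in 76.0%, while Pkhd1 was found in 4 nuclei and no UMI of Spp1 or Epcam was seen in any of 25, a count that allows a UMI in up to 12% of such nuclei and does not bound expression. Its nuclei met the rule through Bicc1 (100%), Krt19 (68.0%), Krt7 (64.0%) and Cftr (56.0%). Cluster 5 (31 nuclei, 16 of Ctrl 1, 12 of Ctrl 2, 2 of Pre-T 1 and 1 of Pre-T 2) was led by the liver enzymes Etnppl, Sult2a8, Hal, Cyp3a25 and Tat and gave a median of 3.08% of its UMIs to the hepatocyte markers. Cluster 4 (39 nuclei, 14, 15, 9 and 1 from the WD mice and none from Ctrl mice) had a median of 10569 UMIs, against 2195 to 3430 in the 4 biliary-like clusters. It was led by Rad51b, the glutamate transporter Slc1a2, Cyp2c38 and Robo1, with Sox9 in 92.3% of nuclei, Krt19 in 5.13% and Cftr in 2.56%. Clusters 4 and 5 were left without a name. Of the 319 nuclei, 224 were biliary-like and 95 were not. The tests below sum UMIs, so that a deep nucleus weighs more than a shallow one. With medians of 10569 and 6676 UMIs, clusters 4 and 5 therefore weigh more in the sums than in the count of nuclei. No doublet caller was run on these nuclei.

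**Figure D2:**
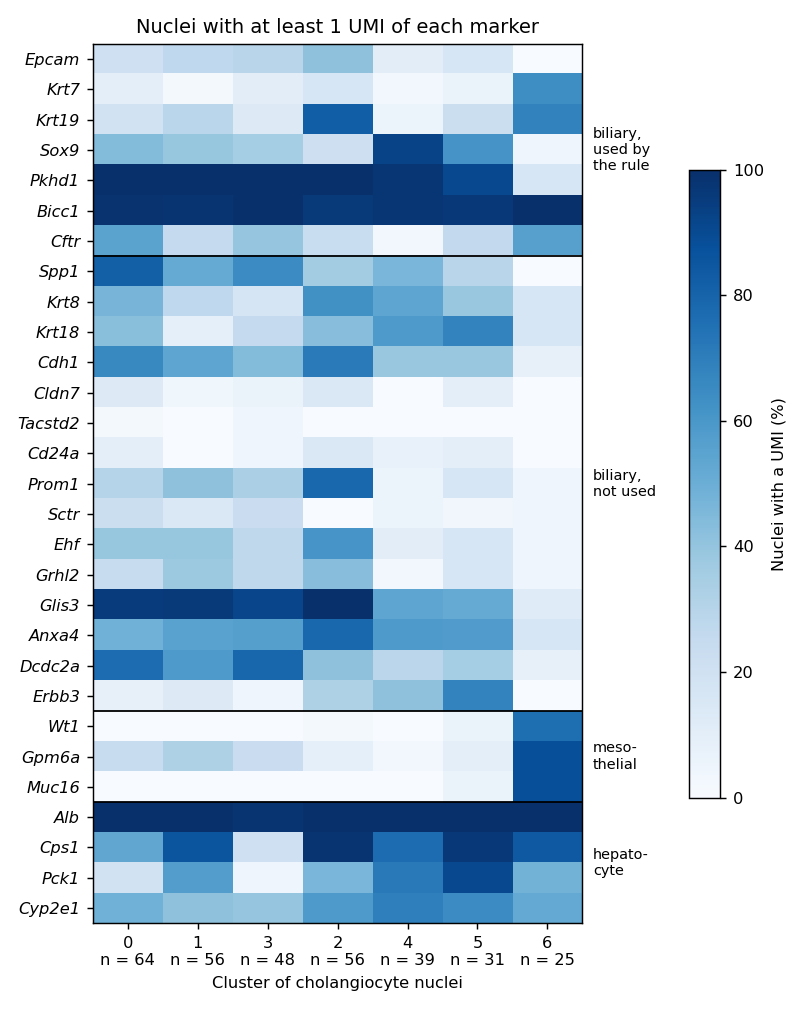
Shade gives the percent of nuclei of a cluster (columns) with at least 1 UMI of a gene (rows), on a scale from 0 to 100%. Glis3 was found in most nuclei of clusters 0 to 3, while Wt1 and Muc16 marked cluster 6, where Pkhd1 was found in 4 of 25 nuclei.

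In Ctrl 1 the high-Krt19 cluster differed from the remaining biliary-like nuclei of the same mouse in receptor, channel and secreted protein genes. Over its 54 nuclei against 19 others, Dmbt1, a secreted mucosal scavenger protein, stood at 3540 against 23.3 CPM, Chrm3, the M3 muscarinic acetylcholine receptor, at 1538 against 93.0 and Klf5, an epithelial transcription factor, at 529 against 46.5. The ion channels Ano1 (1328 against 163 CPM) and Kcnq1 (1098 against 163) were also higher there. Sctr (0 against 140 CPM) and Dcdc2a (250 against 953) were lower. Dmbt1 had 725, 0, 0, 7, 0 and 0 UMIs in the 6 mice, so it was in effect a transcript of Ctrl 1, where 51 nuclei carried it. These genes defined the cluster, were named after their values were seen and are given without a test, as are the leading genes of the other clusters.

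The comparison of 40 weeks of WD with chow asks what the diet changed in cholangiocyte nuclei before the later time point. The antigen presentation genes Cd74, H2-Aa and H2-Ab1, the ductular reaction genes Lcn2 and Ccl2 and the growth factor genes Nrg1 and Fgf13 were higher in Pre-T mice, while the channel genes Ano1 and Kcnq1 and the mesothelial mucin Muc16 were lower. Of 14705 genes tested, 276 changed (1.88%), 89 higher (0.605%) and 187 lower (1.27%), with an adjusted p under 0.05 in edgeR's quasi-likelihood test with Benjamini-Hochberg adjustment. The median log2 difference over all genes was 0.04. These calls leaned on single mice: without Ctrl 1 there were 79, without Ctrl 2 181, without Pre-T 1 72 and without Pre-T 2 34, while the fits without Post-T 1 and without Post-T 2 gave 400 and 277. DESeq2 called 26, and 66 remained when nuclei with over 1 UMI of the mesothelial genes were left out. Of the 89 genes called higher, 3 were called with each of the 6 mice left out in turn, and of the 187 called lower, 10 were.

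Clusters 0, 3 and 4 held no Ctrl nuclei, and clusters 2, 5 and 6 held few WD nuclei. The clusters in which called genes were highest, given here as a description, therefore follow largely from which mice held them. Of the 89 higher genes, 51 (57.3%) had their highest level in cluster 4 and 32 (36.0%) in cluster 0, where 15.1% of all tested genes were highest in cluster 0 and 13.7% in cluster 4. Of the 187 lower genes, 81 (43.3%) were highest in the mesothelial-like cluster 6, 63 (33.7%) in the high-Krt19 cluster 2 of Ctrl 1 and 39 (20.9%) in cluster 5. Over all tested genes these shares were 19.1, 13.7 and 12.6%. A difference between groups in these sums is therefore also a difference in which clusters the mice contributed.

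**Figure D3:**
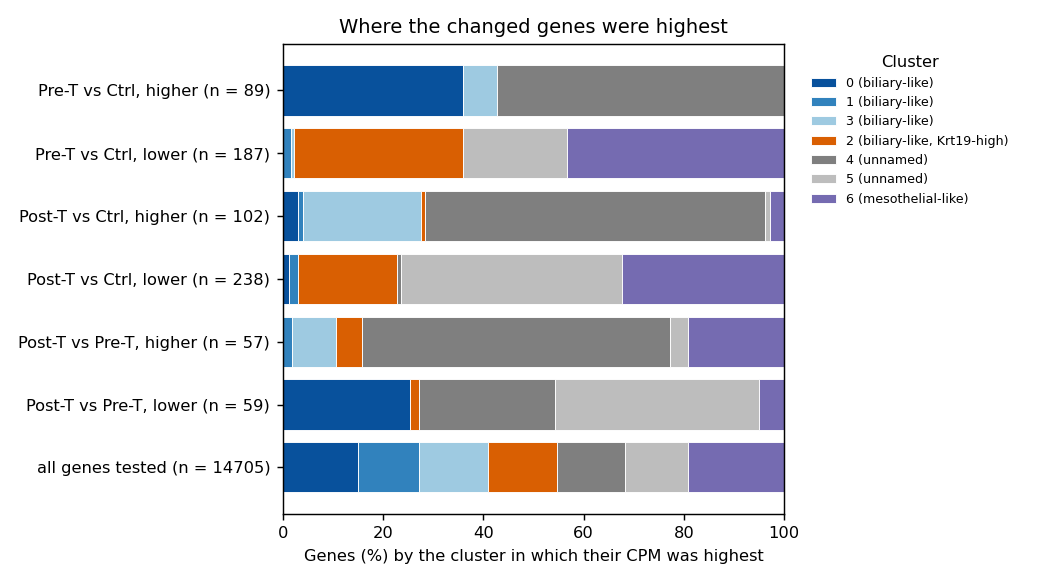
Bars give the share (percent) of genes called higher or lower in each comparison whose CPM was highest in each cluster, beside the same share over all tested genes. Clusters were split by group, so the shares in comparisons with Ctrl mice largely restate which mice held each cluster. Genes higher than in Ctrl mice were most often highest in cluster 4 (57.3% at 40 weeks and 67.6% at 48 weeks), followed at 40 weeks by cluster 0 (36.0%), and lower genes in Pre-T mice were most often highest in clusters 6 (43.3%) and 2 (33.7%).

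Among the 23 interferon and antigen presentation genes tested, 4 rose in Pre-T mice and none fell (17.4%, against 1.88% of all genes), and the median over the list was 1.56 on the log2 scale, against 0.04 over all genes. H2-D1, a class I heavy chain, had 17, 9, 49 and 56 UMIs in the Ctrl and Pre-T mice, or 42.3, 42.9, 173 and 208 CPM, and both Pre-T mice lay above both Ctrl mice (log2 2.08, SE 0.59, edgeR adjusted p = 0.029). Cd74, the class II invariant chain, had 2, 5, 19 and 29 UMIs and rose by 2.74 (SE 0.69, edgeR adjusted p = 0.007). H2-Aa (0, 1, 4 and 16 UMIs, adjusted p = 0.011) and H2-Ab1 (3, 0, 10 and 15 UMIs, log2 3.04, adjusted p = 0.02), both class II chains, also passed edgeR's test. Cd74 stood at 46.1, 38.7, 170 and 275 CPM in endothelial nuclei of these mice, above its level of 4.98, 23.8, 67.0 and 108 CPM in cholangiocyte nuclei, and it rose there too (log2 2.25, edgeR adjusted p = 0.046). The macrophage list was also higher in Pre-T than in Ctrl nuclei, and its part in these values was not tested. DESeq2 called none of the 23 genes, and none of these 4 calls was made without Ctrl 1 (edgeR adjusted p 0.15 to 0.69), without nuclei that carried mesothelial UMIs (0.14 to 0.18) or without those that carried stellate or fibroblast UMIs (0.069 to 0.24). H2 genes form a family of close sequence, so that reads may be split between members.

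Of 32 ductular reaction genes, 4 rose and 1 fell in Pre-T mice (5 of 32, or 15.6%, against 1.88% of all genes), with a list median of 0.73 on the log2 scale. Lcn2, the iron-binding protein lipocalin 2, had 3, 1, 16 and 30 UMIs in the Ctrl and Pre-T mice and rose by 3.51 (SE 0.76, edgeR adjusted p = 0.00065). Ccl2, the monocyte chemokine, had 0, 0, 19 and 7 UMIs, at least 9.58-fold higher against a floor of 3 counts over the Ctrl mice (edgeR adjusted p = 0.00013). Cluster 4, which was not biliary-like, held 69.2% of the UMIs of Ccl2, and 1 nucleus held 10 of them. Ccn2, a matrix protein and YAP target, had 0, 3, 16 and 14 UMIs (log2 3.21, adjusted p = 0.0084), and Vcam1, an adhesion receptor for leukocytes, 5, 2, 17 and 21 (log2 2.47, adjusted p = 0.026). Anxa1 went the other way with 9, 4, 0 and 0 UMIs, at least 3.92-fold lower (edgeR adjusted p = 0.037). Lcn2 was also seen in endothelial nuclei, at 0.606, 0.605, 19.9 and 83.1 CPM in these 4 mice. Spp1, a gene long used to mark the ductular reaction, had 69, 54, 240 and 162 UMIs and non-overlapping groups at 172 and 257 against 847 and 601 CPM, but did not pass the test (log2 1.71, SE 0.67, edgeR adjusted p = 0.24). DESeq2 called none of the 32 genes, 14 of which had an unadjusted p under 0.05 in edgeR, and without Ctrl 1 the 5 calls were lost (edgeR adjusted p 0.14 to 0.77). Without nuclei that carried mesothelial UMIs Lcn2 and Ccl2 were still called, and Ccn2, Vcam1 and Anxa1 were not (edgeR adjusted p = 0.28, 0.21 and 0.24).

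Growth factor genes gave 3 calls of 27, all higher in Pre-T mice (11.1%, against 1.88% of all genes). Nrg1, the ligand neuregulin 1 of ERBB receptors, had 3, 40, 138 and 146 UMIs (log2 2.46, SE 0.67, edgeR adjusted p = 0.019). It was among the leading genes of cluster 4, with a UMI in 76.9% of nuclei there against 18.9% of the other cholangiocyte nuclei. Fgf13, an intracellular member of the fibroblast growth factor family, had 2, 2, 18 and 12 (log2 2.87, SE 0.80, adjusted p = 0.024). Areg, the EGF receptor ligand amphiregulin, had 1, 0, 1 and 15 UMIs, so that 15 of its 16 UMIs in Pre-T mice came from Pre-T 2 (log2 3.73, edgeR adjusted p = 0.049). Of 23 TGF beta genes, Inhba, which encodes a subunit of activin A, rose with 2, 6, 28 and 16 UMIs (log2 2.41, SE 0.68, edgeR adjusted p = 0.025). Its change also differed from that in endothelial nuclei, by 3.96 on the log2 scale (edgeR interaction, adjusted p = 3.5e-05). Nrg1, Fgf13, Areg and Inhba were not called by edgeR without Ctrl 1 (adjusted p 0.36 to 0.84). Without nuclei that carried mesothelial UMIs Nrg1 was called and Fgf13, Areg and Inhba were not (edgeR adjusted p = 0.098, 0.31 and 0.32), and without those that carried stellate or fibroblast UMIs Nrg1 was not (0.092). Ltbp1, which stores latent TGF beta in the matrix, fell from 65 and 55 UMIs to 7 and 1 (log2 -3.86, adjusted p = 4.3e-06), with 73.3% of its UMIs in cluster 6, and it was not called without nuclei that carried mesothelial UMIs (log2 -1.86, edgeR adjusted p = 0.55).

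Transport genes gave 2 calls of 18, both lower (11.1%, against 1.88% of all genes). Ano1, a calcium-activated chloride channel, had 310, 59, 20 and 12 UMIs in the Ctrl and Pre-T mice, or 772, 281, 70.5 and 44.5 CPM, and all Pre-T values were under all Ctrl values (log2 -3.27, SE 0.67, edgeR adjusted p = 0.00023). Kcnq1, a potassium channel that sustains epithelial secretion, had 234, 44, 26 and 15 UMIs, or 583, 210, 91.7 and 55.6 CPM (log2 -2.51, SE 0.62, adjusted p = 0.006). Its change differed from that in endothelial nuclei by -2.06 (edgeR interaction, adjusted p = 0.028). Both genes were highest in cluster 2 of Ctrl 1, and neither passed without Ctrl 1, where Ano1 had an adjusted p of 0.13 and Kcnq1 of 0.65. Kcnq1 was not called either without nuclei that carried mesothelial UMIs (edgeR adjusted p = 0.079). Klf5 fell on the same nuclei, with 109, 3, 5 and 3 UMIs (log2 -3.45, edgeR adjusted p = 4.4e-05), and its difference was -0.02 without Ctrl 1. The secretin receptor Sctr (6, 10, 20 and 10 UMIs) and the remaining transport genes were not called. Klf5 was the 1 call among 23 biliary transcription factor genes, and Ccn2 the 1 call among 23 YAP and TEAD genes (4.35% each).

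Genes of the cilium and genes of Notch signalling, the pathway that directs biliary fate, gave no call between groups of cholangiocyte nuclei. None of 26 cilium and polycystic disease genes passed in any of the 3 comparisons, with list medians of -0.44, -0.20 and 0.26 on the log2 scale for Pre-T and for Post-T relative to Ctrl and for Post-T relative to Pre-T, where the medians over all genes were 0.04, -0.34 and -0.38. At an unadjusted p under 0.05 edgeR gave 0, 1 and 1 of the 26, and DESeq2 called none. None of 21 Notch genes passed either (medians -0.15, -0.21 and -0.13), with 1, 2 and 0 at an unadjusted p under 0.05 in edgeR and none called by DESeq2. In simulated data edgeR recovered 35.5, 1.5 and 0.5% of 4-fold changes in the 3 comparisons. The lack of a call therefore does not show the lack of a change. In the comparison with endothelial nuclei 1 gene of each list passed, Dcdc2a in Pre-T mice (difference of changes 2.29, edgeR interaction, adjusted p = 0.025) and the Notch ligand Jag1 in Post-T mice (2.56, adjusted p = 0.033), and they were called in 5 and 4 of 10 alternatives, Jag1 turning to -7.28 without Post-T 1. None of 30 junction and keratin genes passed in Pre-T mice, including Krt8 (112, 13, 60 and 82 UMIs) and Cdh1, or E-cadherin (132, 38, 75 and 63 UMIs), with 2 at an unadjusted p under 0.05 in edgeR and none called by DESeq2.

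Lipid genes gave 3 calls of 28 in Pre-T mice (10.7%, against 1.88% of all genes). Cd36, a fatty acid transporter, had 4, 12, 48 and 41 UMIs (log2 2.40, SE 0.62, edgeR adjusted p = 0.011) and Cidec, a lipid droplet protein, had 1, 2, 13 and 11 (log2 2.92, adjusted p = 0.031). Hmgcs1, an enzyme of cholesterol synthesis, fell from 77 and 11 to 6 and 9 UMIs (log2 -2.30, SE 0.60, edgeR adjusted p = 0.012). Cdkn1a, the cell cycle inhibitor p21, was the 1 call among 16 cell cycle and senescence genes (6.25%), with 3, 0, 15 and 16 UMIs (log2 3.34, SE 0.82, edgeR adjusted p = 0.005). Without Ctrl 1 these 4 calls were lost (edgeR adjusted p 0.11 to 0.88), as they were without nuclei that carried mesothelial UMIs (0.051 to 0.22).

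The largest changes that moved the same way in all mice were dominated by genes absent from 1 of the groups. Apoa4, an apolipoprotein, had 0, 0, 28 and 44 UMIs in Ctrl and Pre-T mice and was at least 26.5-fold higher against a floor of 3 counts over the Ctrl mice. It was among the 3 genes called higher with every mouse left out in turn, and it was also seen in endothelial nuclei, at 7.88, 1.21, 112 and 192 CPM. Ptges, a prostaglandin E synthase, had 0, 0, 16 and 12 UMIs (at least 10.3-fold higher), with 93.3% of all its UMIs in cluster 4, and the complement gene C1qb, a macrophage gene, had 1, 0, 6 and 22 (log2 4.51, edgeR adjusted p = 0.00073). Neither Ptges nor C1qb was called by edgeR without Ctrl 1 (adjusted p = 0.12 for both). On the lower side Cyp2s1, a cytochrome P450 of epithelia, had 68, 16, 0 and 0 UMIs and was at least 25.3-fold lower (edgeR adjusted p = 1e-08). The long non-coding RNA Meg3 had 88, 16, 0 and 0 UMIs (at least 31.3-fold lower, edgeR adjusted p = 0.1 without Pre-T 2 and 0.39 without nuclei that carried mesothelial UMIs), Frmd5 46, 13, 0 and 0 (at least 17.8-fold lower) and Bmpr1b, a BMP receptor, 21, 27, 0 and 0 (at least 14.5-fold lower). The mesothelial mucin Muc16, with 40, 74, 2 and 0 UMIs, was lower by a log2 value of -5.76 (SE 0.82, edgeR adjusted p = 8.3e-09). Cyp2s1, Muc16, Bmpr1b and Frmd5 were among the 10 genes called lower with every mouse left out. Cluster 6, the mesothelial-like one, held 97.9% of the UMIs of Bmpr1b and 97.4% of those of Muc16. Muc16 had too few UMIs to be tested without nuclei that carried mesothelial UMIs. Frmd5 had 36 UMIs in cluster 5 and 20 in cluster 6. Cyp2s1 had 59 UMIs in cluster 2, the high-Krt19 cluster of Ctrl 1, 16 in cluster 6, 6 in cluster 5 and 3 in cluster 1. DESeq2 did not call Bmpr1b or Frmd5. Mup7, with 67, 1, 0 and 0 UMIs, belongs to a multigene family whose members share reads.

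**Figure D4:**
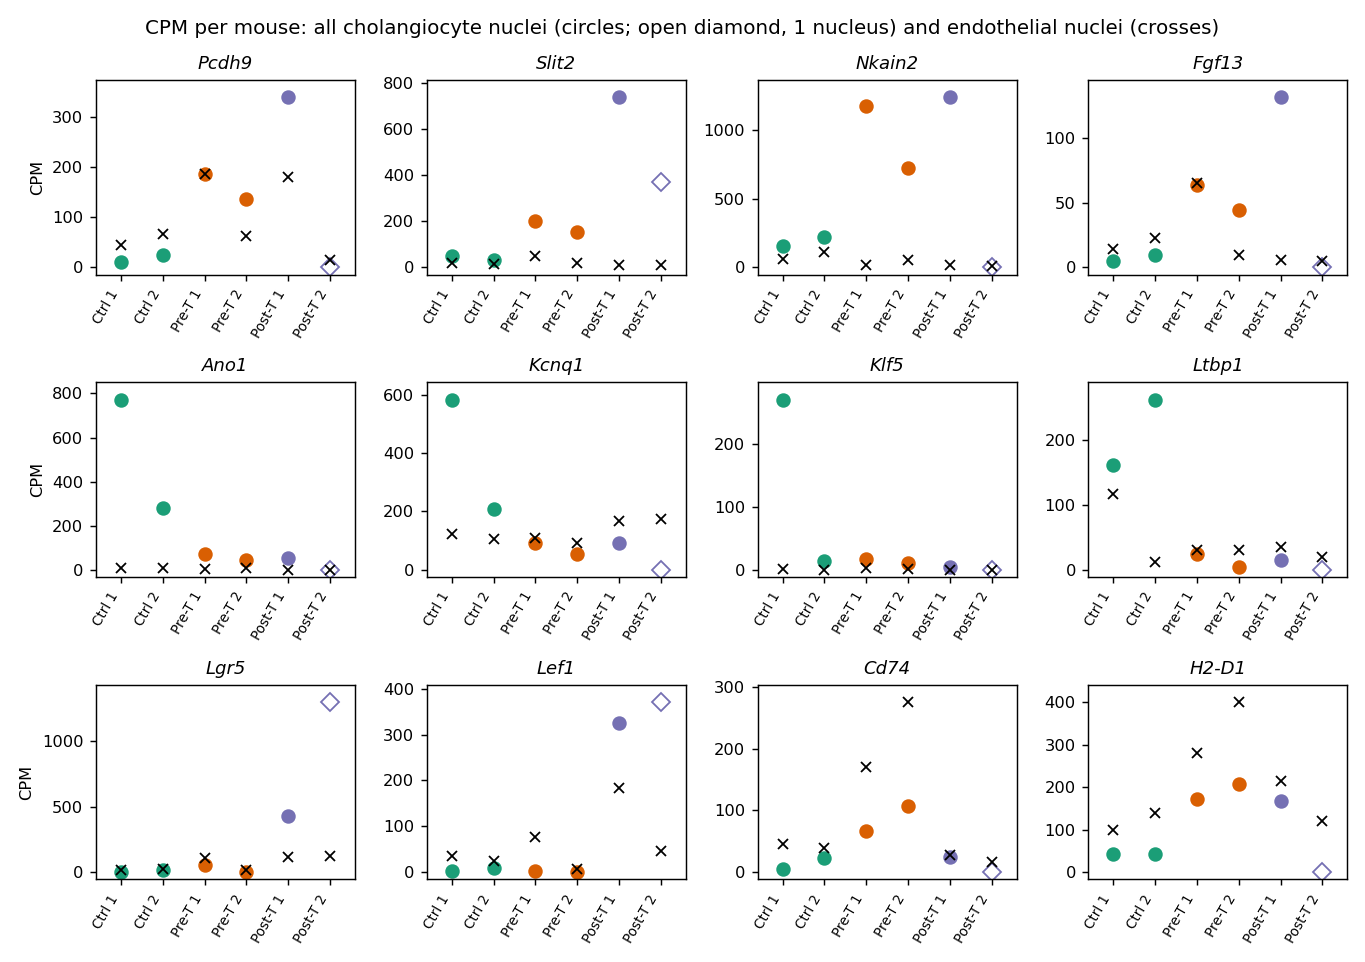
Points give CPM (y axis, UMIs of a gene per 1000000 UMIs of the class) per mouse (x axis) for 12 genes, with filled circles for cholangiocyte sums, an open diamond for the single nucleus of Post-T 2 and crosses for endothelial sums. Ano1 and Kcnq1 were highest in Ctrl 1, Fgf13 and H2-D1 were higher in both Pre-T mice than in both Ctrl mice, and Cd74 lay higher in endothelial than in cholangiocyte nuclei of every Ctrl and Pre-T mouse.

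The comparison of 48 weeks of WD with chow compares the later group with the same Ctrl mice. The Wnt pathway genes Lgr5 and Lef1, expressed mainly in cluster 4, glutamine synthetase and the guidance gene Slit2 were higher in Post-T mice, while the hepatocyte genes Cps1, Arg1, Hal and Hamp and the mesothelial mucin Muc16 were lower. Of 14705 genes, 340 changed (2.31%), 102 higher (0.694%) and 238 lower (1.62%), and the median log2 difference over all genes was -0.34. DESeq2 called 120. Leaving out Ctrl 1 left 109 calls, Ctrl 2 171, Pre-T 1 159 and Pre-T 2 152. There were 409 calls without Post-T 2 and 230 without Post-T 1, of which 56 were among the 340, and 97 remained without nuclei that carried mesothelial UMIs. Of the 238 lower genes, 207 had no UMI in the single nucleus of Post-T 2. Calls held with every mouse left out numbered 5 of the 102 higher genes, namely Apoa4, Cyp4a14, Glul, Kif26b and Lgr5, and 9 of the 238 lower genes. In the fit without Post-T 1 the Post-T group was the single nucleus of Post-T 2, which sat in cluster 4. Holding in that fit therefore reflects 1 nucleus of that cluster and does not replicate the change. Of the higher genes, 69 (67.6%) were highest in cluster 4. Of the lower genes 105 (44.1%) were highest in cluster 5, 77 (32.4%) in cluster 6 and 47 (19.7%) in cluster 2. These shares too follow largely from which mice held each cluster.

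Lgr5, the receptor that amplifies Wnt signals in stem cells and in hepatocytes around the central vein, had 1, 3, 16, 1, 85 and 14 UMIs in the 6 mice and rose by 6.03 in Post-T against Ctrl mice (SE 0.79, edgeR adjusted p = 2.5e-10). Its change exceeded that in endothelial nuclei by 3.53 (edgeR interaction, adjusted p = 0.0054). Lef1, a transcription factor of the same pathway, had 1, 2, 1, 0, 64 and 4 UMIs (log2 5.62, SE 0.78, edgeR adjusted p = 3e-09, and 0.11 without Post-T 1), and Glul, glutamine synthetase, a Wnt target of hepatocytes around the central vein, had 11, 7, 86, 29, 108 and 51 (log2 5.38, SE 0.83, adjusted p = 1.4e-07). Glul also rose in endothelial nuclei (log2 4.58, edgeR adjusted p = 0.023), and the difference between these changes was 0.88 (edgeR interaction, adjusted p = 1). The UMIs of Lgr5 came to 89.2% from cluster 4, which lacked Cftr and Krt19 in nearly all nuclei, and 93.1% of those of Lef1 did.

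Slit2, a secreted guidance ligand of ROBO receptors, was highest outside cluster 4. It had 19, 7, 57, 42, 146 and 4 UMIs, or 47.3, 33.3, 201, 156, 741 and 371 CPM, so that every WD mouse lay above both Ctrl mice, and 64.4% of its UMIs were in cluster 3. It rose in Post-T mice (log2 3.60, SE 0.70, edgeR adjusted p = 9e-05) by 3.87 more than in endothelial nuclei (edgeR interaction, adjusted p = 1.2e-05), while the difference in Pre-T mice did not pass (log2 2.03, edgeR adjusted p = 0.1). Without Post-T 1 its difference was 2.02 (adjusted p = 0.38), and without Ctrl 1 or Ctrl 2 its adjusted p was 0.14 and 0.15. Greb1l, which acts in retinoid and kidney development, was also called higher, with 8, 6, 25, 7, 50 and 1 UMIs (log2 3.03, SE 0.65, edgeR adjusted p = 0.00078, and 0.87 without Post-T 1). Both were named after their values were seen.

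Up to 16.7% of the genes of a list were called in Post-T mice, against 2.31% of all genes. The shares were 16.7% of 18 transport, 13.0% of 23 TGF beta, 8.70% of 23 biliary transcription factor and 7.14% of 28 lipid genes. Ductular reaction genes gave 6.25% of 32 and YAP and TEAD genes 4.35% of 23. Growth factor genes gave 3.70% of 27 and junction and keratin genes 3.33% of 30. No cilium, Notch or cell cycle gene was called. DESeq2 called 1 transport, 2 TGF beta, 1 growth factor and 1 lipid gene. Fgf13 had 2, 2, 26 and 0 UMIs in the Ctrl and Post-T mice and rose by 3.84 (SE 0.82, edgeR adjusted p = 0.00064), by 5.24 more than in endothelial nuclei (edgeR interaction, adjusted p = 1.9e-05), although its groups overlapped because the single nucleus of Post-T 2 held none. Amot, an angiomotin of the YAP pathway, had 13, 2, 29 and 0 UMIs and Pax8, a transcription factor of kidney and thyroid epithelia, 0, 0, 9 and 0, and both were called higher with the same overlap (edgeR adjusted p = 0.044 and 0.0061). Mmp7, a matrix protease of injured ducts, had 1, 1, 10 and 0 (log2 3.43, edgeR adjusted p = 0.046). On the lower side Ano1 had 310, 59, 11 and 0 UMIs (log2 -3.57, SE 0.81, edgeR adjusted p = 0.0016) and Kcnq1 234, 44, 18 and 0 (log2 -2.51, SE 0.73, adjusted p = 0.029). Kcnn4, a calcium-activated potassium channel, had 21, 3, 0 and 0 (at least 2.72-fold lower, adjusted p = 0.049), and the mucin Muc1 31, 4, 0 and 0 (at least 3.97-fold lower, adjusted p = 0.013). Without Ctrl 1 none of these 8 genes was called (edgeR adjusted p 0.14 to 0.61), and without Post-T 1 Fgf13, Amot and Mmp7 turned lower. Without nuclei that carried mesothelial UMIs Fgf13 and Ano1 were called and the other 6 were not (0.071 to 0.28). None of the 23 interferon and antigen presentation genes passed in Post-T mice, where the list median was 0.44, with 3 at an unadjusted p under 0.05 in edgeR and none called by DESeq2. Of simulated 4-fold changes edgeR recovered 1.5% in this comparison, so smaller changes could go uncalled.

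The lower genes of Post-T mice that held with every mouse left out were Arg1, Cps1, Etnppl, Fabp1, Ftcd, Hal, Hamp, Mup3 and Sulf1. All but Sulf1 are known as products of hepatocytes, and the fit without Post-T 1 rested on 1 nucleus. Cps1, the first enzyme of the urea cycle, had 990, 705, 51 and 1 UMIs in Ctrl and Post-T mice (log2 -3.98, SE 0.86, edgeR adjusted p = 0.00076), and arginase, Arg1, had 255, 225, 8 and 0 (log2 -4.67, SE 0.94, adjusted p = 0.0002). Hal, which breaks down histidine, had 262, 77, 1 and 0 UMIs (log2 -6.73, adjusted p = 1.6e-05), and Hamp, the iron hormone hepcidin, had 186, 278, 0 and 0 (at least 52.6-fold lower). Endothelial nuclei showed lower levels of these genes too. Cps1 was at 2498 and 2162 CPM in endothelial nuclei of Ctrl mice and 208 and 207 CPM in those of Post-T mice, and its change in endothelial nuclei was -3.34 (edgeR adjusted p = 0.02). The change of Cps1 in cholangiocyte nuclei did not differ from that by edgeR's interaction test at the threshold (difference -0.52, adjusted p = 1). Arg1 and Hal were named after their values were seen.

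Between 40 and 48 weeks of WD, 116 genes changed (0.789%), 57 higher (0.388%) and 59 lower (0.401%) in Post-T mice, and no call held with every mouse left out. The count was 3 without Pre-T 2, 21 without Pre-T 1, 65 without Ctrl 1, 64 without Ctrl 2, 176 when Post-T 1 was left out and 207 in the absence of Post-T 2. DESeq2 called 53, 19 higher and 34 lower. Lef1 and Lgr5 were again higher, with Lef1 at 1, 0, 64 and 4 UMIs in Pre-T and Post-T mice (log2 6.92, SE 0.90, edgeR adjusted p = 1.5e-10), Lgr5 at 16, 1, 85 and 14 (log2 4.01, SE 0.66, adjusted p = 2.4e-06) and Nkd1, a Wnt feedback inhibitor, at 11, 2, 53 and 13 (log2 3.93, adjusted p = 7.9e-06). Of the 57 higher genes, 35 (61.4%) were highest in cluster 4. The call of Meg3 (0, 0, 1 and 38 UMIs) rested on the single nucleus of Post-T 2, which held 38 of the 39 UMIs. On the lower side Hamp had 117, 236, 0 and 0 UMIs (at least 44.2-fold lower), the ribosomal protein gene Rps27a 31, 42, 0 and 0 (at least 9.15-fold lower) and the chemokine Cxcl1 24, 27, 1 and 0 (log2 -4.19, edgeR adjusted p = 0.031). The interferon-induced gene Ifi27 had 30, 33, 2 and 0 UMIs (log2 -3.58, adjusted p = 0.035) and the tight junction gene Tjp3 17, 15, 0 and 0 (at least 4.01-fold lower, adjusted p = 0.035). The desaturase Scd1 had 186, 472, 9 and 7 (log2 -3.39, edgeR adjusted p = 0.03). Without Pre-T 2 the genes named here other than Lef1 and Meg3 were not called (edgeR adjusted p 0.058 to 0.86), and Lef1 was not without Post-T 1 (adjusted p = 0.058). Cxcl1, Ifi27, Tjp3 and Scd1 were not called without nuclei that carried mesothelial UMIs (edgeR adjusted p 0.14 to 0.18). Because Pre-T and Ctrl mice are both compared with Post-T mice, these calls share samples with those above.

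The change in cholangiocyte nuclei was compared with the change in endothelial nuclei of the same mice. Whether a change was particular to cholangiocytes was not tested. The cholangiocyte sums also hold the mesothelial-like cluster and the clusters left without a name, and no contrast with hepatocyte nuclei was run. Lgr5 and Lef1 passed this comparison in Post-T against Ctrl mice, yet 89.2% and 93.1% of their UMIs were in cluster 4. Of 19798 genes, 184 differed for Pre-T minus Ctrl (0.929%), 69 with a higher change in cholangiocyte nuclei (0.349%) and 115 with a lower one (0.581%). For Post-T minus Ctrl 102 differed (0.515%), 33 higher (0.167%) and 69 lower (0.349%), and for Post-T minus Pre-T 33 did (0.167%), 21 higher (0.106%) and 12 lower (0.0606%). Endothelial nuclei on their own had 0.869, 3.98 and 3.43% of 19217 genes called in these comparisons. Nkain2, a neuronal sodium pump interacting protein, had 62, 46, 334, 196, 245 and 0 UMIs in cholangiocyte nuclei and its change exceeded that in endothelial nuclei by 3.66 in Pre-T mice and by 4.03 at 48 weeks (edgeR interaction, adjusted p = 1.6e-06 and 1.5e-05), although DESeq2 gave adjusted p of 0.47 and 0.69 for the same terms. Without Post-T 1 the second difference turned to -7.47 (edgeR adjusted p = 1), and without Pre-T 1 the first was 2.58 (adjusted p = 0.5). Within cholangiocyte nuclei alone its difference did not pass (log2 2.30, edgeR adjusted p = 0.066 in Pre-T mice).

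Leaving out 1 mouse at a time moved these counts widely. For Pre-T minus Ctrl there were 38, 91, 24, 45, 541 and 538 calls with the 6 mice left out in turn. For Post-T minus Ctrl there were 39, 53, 60, 57, 173 and 337, and for Post-T minus Pre-T 14, 14, 12, 10, 166 and 143. Calls that held each time numbered 2 of 184, 6 of 102 and 2 of 33. Cfap69, a protein of motile cilia and flagella, had 20, 13, 11, 12, 6 and 0 UMIs in cholangiocyte nuclei but 3.03, 2.42, 78.2, 119, 136 and 41.2 CPM in endothelial nuclei, a difference between changes of -5.44 at 40 weeks and -6.54 at 48 weeks (edgeR interaction, adjusted p = 1.8e-09 and 4.8e-10). Kcne3, a partner subunit of Kcnq1 in secretory epithelia, had 28, 7, 8, 0, 7 and 0 UMIs in cholangiocyte nuclei, whereas its endothelial level went from 1.82 and 1.82 CPM in Ctrl mice to 92.1 and 109 CPM in Post-T mice (difference of changes -6.43, edgeR interaction, adjusted p = 6e-10). Arhgef28 and Mcf2l, both exchange factors for small GTPases, showed the same direction in Post-T mice, at differences of -4.27 and -7.00 (adjusted p = 1.8e-08 and 1.1e-11). Cfap69, Kcne3, Arhgef28, Mcf2l and Nkain2 were named after their values were seen.

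The 168 nuclei of clusters 0, 1 and 3, which carry the biliary markers and leave out both the high-Krt19 cluster and the 3 unlike clusters, were summed per mouse as a description. There were 19, 36, 45, 33 and 35 such nuclei in the 5 mice other than Post-T 2, with 43000, 85891, 116315, 96141 and 100342 UMIs, so that 1 UMI equals 23.3 CPM in Ctrl 1 and 8.60 to 11.6 CPM in the other 4. Of 4681 genes with at least 20 UMIs, 665 (14.2%) were higher in all 3 WD mice than in both Ctrl mice and 566 (12.1%) were lower. The clusters were themselves formed from these genes and split by group, so no test is given.

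In those nuclei the genes with the widest gap between WD and Ctrl mice were Nkain2, Slit2 and Pcdh9, ranked by the ratio of the nearest mice, in which the lower level was taken as at least 3 UMIs of the shallowest mouse of its group. Nkain2 had 5, 12, 231, 124 and 243 UMIs, 9.23 times more in the lowest WD mouse than in the highest Ctrl mouse as CPM. Slit2 had 0, 2, 53, 37 and 145 UMIs, and its CPM went from 0 and 23.3 in Ctrl mice to 456 and 385 in Pre-T mice and 1445 in Post-T 1. Pcdh9, a protocadherin, had no UMI in either Ctrl mouse and 47, 37 and 66 in the WD mice, at least 20.6-fold higher in sum, and Pcdh11x, its relative on the X chromosome, had 0, 2, 20, 18 and 20. In the sums over all cholangiocyte nuclei Pcdh9 had 4, 5, 53, 37, 67 and 0 UMIs. There it was called higher in Pre-T mice (log2 3.30, SE 0.70, edgeR adjusted p = 0.00047), but not without Ctrl 1. In Post-T 1, 49 of the 67 UMIs of Pcdh9 came from 1 nucleus, which also enters the biliary-like sum of that mouse. Fgf13 had 1, 2, 18, 12 and 21 UMIs in the biliary-like nuclei, and H2-D1 stood at 46.5 and 46.6 CPM in Ctrl mice against 206, 312 and 179 CPM in WD mice. Among the lower genes Sult2a8, a sulfotransferase of the liver, came first, at 372 and 128 CPM in Ctrl mice and 0, 10.4 and 19.9 CPM in WD mice. The genes of this paragraph other than Fgf13 and H2-D1 were named after their values were seen.

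**Figure D5:**
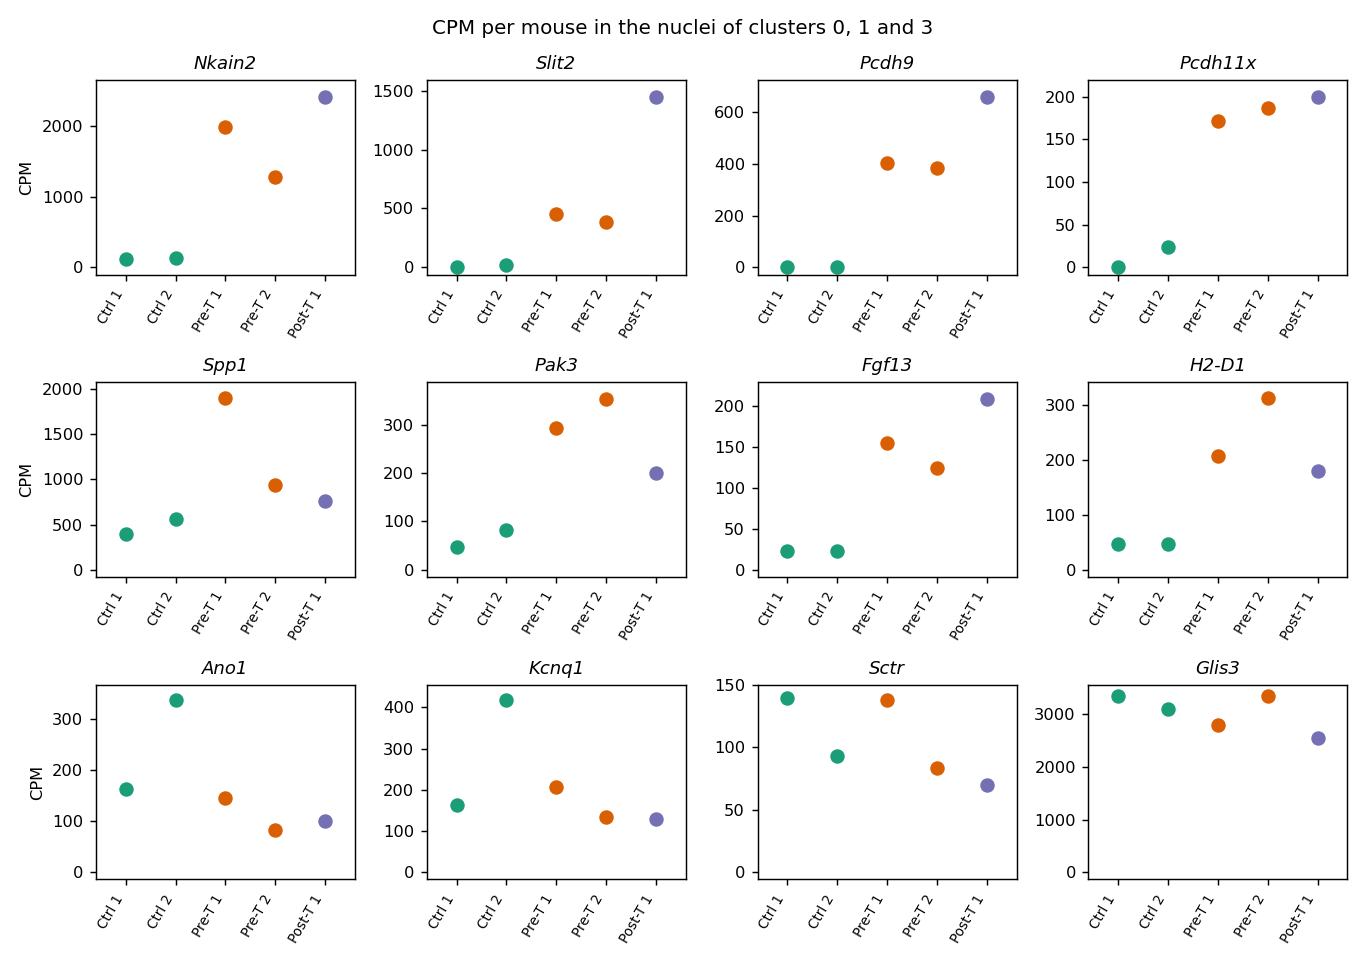
Points give CPM (y axis) per mouse (x axis, the 5 mice with such nuclei) in the summed nuclei of clusters 0, 1 and 3 for 12 genes. Nkain2, Slit2, Pcdh9, Pcdh11x, Spp1, Pak3, Fgf13 and H2-D1 were higher in each of the 3 WD mice than in both Ctrl mice.

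The channel genes lower in Pre-T and Post-T mice over all cholangiocyte nuclei were closer between groups in these biliary-like nuclei. Ano1 had 7, 29, 17, 8 and 10 UMIs there, or 163, 338, 146, 83.2 and 99.7 CPM, with the highest WD mouse less than 1 UMI of Ctrl 1 (23.3 CPM) under the lower Ctrl mouse. Kcnq1 stood at 163 and 419 CPM in Ctrl mice and at 206, 135 and 130 CPM in WD mice, and its groups overlapped. Sctr, at 140 and 93.1 against 138, 83.2 and 69.8 CPM, overlapped as well.

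Positions of the genes described in most depth are given in GRCm38, by GENCODE vM21. Slit2 (ENSMUSG00000031558) spans chr5:47983138-48307733 on the plus strand, Pcdh9 (ENSMUSG00000055421) chr14:93013410-93890679 and Nkain2 (ENSMUSG00000069670) chr10:31689310-32890462, both on the minus strand. Ano1 (ENSMUSG00000031075) spans chr7:144588549-144751974 on the minus strand and Kcnq1 (ENSMUSG00000009545) chr7:143106362-143427042 on the plus strand. Lgr5 (ENSMUSG00000020140) spans chr10:115450311-115587780 on the minus strand. All are protein-coding, and counts are per gene with no split into exons and introns.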

How the data were processed

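Liver snRNAseq libraries of 6 mice were used, 2 each of Ctrl, Pre-T and Post-T, grouped by their labels. The authors deposited raw UMI counts per gene and barcode for each library. The submitters' processing notes name Cell Ranger 6.1.1 and mm10, and whether intronic reads were counted is not given in the sources used here. The 2 mice of a group are separate animals. The nuclei, gene lists and tests were chosen with earlier results of these data known.

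UMIs of cholangiocyte nuclei were summed per mouse and compared with edgeR 4.0.16 (R 4.3.3, limma 3.58.1; TMM library sizes, quasi-likelihood test, 1 joint fit over the 6 mice with 3 degrees of freedom left, genes with at least 3 counts, Benjamini-Hochberg threshold 0.05). The change in endothelial nuclei was subtracted in an interaction fit with mouse as a term. DESeq2 1.42.0, other filters, other marker thresholds, leaving out nuclei with transcripts of other classes and leaving out each mouse were alternatives, of which the exclusion of nuclei with mesothelial UMIs was chosen after the data were seen. Shares were compared by exact permutation tests in scipy 1.17.1. Nuclei were clustered in scanpy 1.11.5 (Python 3.11.15, leidenalg 0.10.2, numpy 2.4.6, pandas 2.3.3) on 1500 variable genes, 15 principal components and 15 neighbours at a resolution of 0.8, and plots were drawn in matplotlib 3.10.9. No doublet caller was run, and no integration was applied. Counts per cholangiocyte sum were 401699, 209947, 283495, 269605, 197091 and 10794 UMIs, so precision is lowest for Post-T 2.

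Genes named are the markers, members of 12 lists, and per comparison up to 12 higher and 12 lower genes with the largest fold change among called genes with at least 20 UMIs and no overlap between groups. Genes outside this rule are marked as named after their values were seen. Folds against a group at 0 use a floor of 3 counts over the group. The fits were tested on simulated data with 200 changed genes each. For Pre-T and for Post-T relative to Ctrl and for Post-T relative to Pre-T, edgeR recovered 35.5, 1.5 and 0.5% of 4-fold changes. Of 16-fold changes it recovered 96, 76 and 76%. Replicate numbers did not pair the mice (correlations of deviations from group means -0.16, 0.01 and 0.02 over 5512 genes). Some genes are not reported here.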

Additional observations from a re-analysis of the deposited data

Results flagged for a closer look

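The change differed between cholangiocyte and endothelial nuclei by edgeR's interaction test in 184 genes for Pre-T minus Ctrl, in 102 for Post-T minus Ctrl and in 33 for Post-T minus Pre-T, at an adjusted p under 0.05. These are differences of the same contrast between 2 classes of nuclei of the same mice, and their stability is given with the report.

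Barcodes outside the limits of the rule also carried biliary markers. Of the barcodes with 5000 or more genes, which were not used, 35 met the marker rule, 1, 2, 15, 6, 10 and 1 in the mice from Ctrl 1 to Post-T 2. With these barcodes kept, the difference in share between WD and Ctrl mice was -0.348 percentage points.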

How the results depend on the processing

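The share of cholangiocyte nuclei and their hepatocyte transcript share kept their direction under every alternative that was run, and neither passed a test. The counts of changed genes did not keep their size. For Pre-T and for Post-T relative to Ctrl and for Post-T relative to Pre-T, where 276, 340 and 116 genes were called, DESeq2 called 26, 120 and 53, a stricter filter on low counts (filterByExpr) 94, 204 and 56, a rule of at least 4 markers 40, 9 and 6, and the fit without nuclei that carried mesothelial UMIs 66, 97 and 38. Without nuclei that carried stellate or fibroblast UMIs the last 2 counts were 210 and 62. Leaving out 1 mouse, where the mouse left alone in its group was assumed to vary like the other groups, gave 34 to 400, 109 to 409 and 3 to 207. For the difference from endothelial nuclei, DESeq2 called 101 genes for the first comparison, and leaving out 1 mouse gave 24 to 541, 39 to 337 and 10 to 166. The cause was not tested. With the replicate block, 152, 186 and 44 genes were called, but the numbers did not pair the mice.

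For the 114 log2 differences of named genes that passed the test, the call was kept in 1214 alternatives, the difference fell short of the threshold with the same direction in 555 and turned in 10. Most of those that turned did so with 1 mouse left out. With 1 mouse left out, Dmbt1 in Pre-T against Ctrl mice ranged from -10.72 to 4.39, and in Post-T against Ctrl mice Amot ranged from -5.55 to 3.51, Fgf13 from -3.79 to 4.20, Hba-a2 from -6.12 to 4.77, Mmp7 from -2.89 to 3.78 and Pcdh9 from -4.92 to 4.43. Frmpd4 in Post-T against Pre-T mice ranged from -2.94 to 8.30. With at least 4 markers Fgf13 was at -2.18, and without nuclei that carried mesothelial UMIs Sulf1 was at 1.18 in Pre-T against Ctrl mice and at 1.13 in the later group. At 9 alternatives no adjusted p was given. Depth limits all of this: the Post-T sums hold 197091 and 10794 UMIs, and a gene with few UMIs may come from a few nuclei.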

Other observations

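Several genes with large changes belonged to no list. Frmpd4, a scaffold protein of synapses, had 316, 5, 1, 1, 253 and 0 UMIs in the 6 mice, again from Ctrl over Pre-T to Post-T. It was lower in Pre-T than in Ctrl mice (log2 -6.73, SE 1.02, edgeR adjusted p = 3.9e-08), yet 41 nuclei of Ctrl 1 and 9 of Post-T 1 carried nearly all of it, Ctrl 2 lay near the Pre-T mice, and the call was lost without Ctrl 1 (edgeR adjusted p = 0.82). Saa2, an acute-phase protein, had 0, 0, 2, 28, 1 and 0 UMIs and was at least 11.1-fold higher in Pre-T mice against a floor of 3 counts over the Ctrl mice, with 15 nuclei of Pre-T 2 carrying it and no call without that mouse (edgeR adjusted p = 1). In endothelial nuclei of the same mice Saa2 stood at 4.24, 0.605, 18.6, 118, 22.8 and 1.87 CPM.

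Rad51b, a gene of homologous recombination repair, had 50, 32, 705, 682, 230 and 7 UMIs and was called higher in Pre-T mice (log2 4.12, SE 0.82, edgeR adjusted p = 0.00012), by 2.25 more than in endothelial nuclei (edgeR interaction, adjusted p = 0.043). Cluster 4 held 83.0% of these UMIs, and the call was lost without Ctrl 1 (edgeR adjusted p = 0.16). Upk1b, a uroplakin of mesothelium and urothelium, had 15, 18, 0, 0, 0 and 0 UMIs and was at least 9.95-fold lower in Pre-T mice, with 87.9% of its UMIs in cluster 6. Smad6, an inhibitor of BMP signalling, had 42, 30, 4 and 0 UMIs in Ctrl and Post-T mice (log2 -2.79, edgeR adjusted p = 0.045), and Acly, an enzyme of fatty acid synthesis, 74, 42, 6 and 0 (log2 -2.89, edgeR adjusted p = 0.02), and neither was called without Ctrl 1 (edgeR adjusted p = 0.13 for both). Rad51b was named after its values were seen, while Smad6 belongs to the TGF beta list and Acly to the lipid list.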
